A study of Homo sapiens with 9 samples.

Results

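The genes described here encode surface proteins that are used or proposed as targets in prostate cancer, together with the relatives of FOLH1. They were chosen by symbol, with earlier results of these data known. The group is 9 of the 37351 genes in the deposited table: FOLH1, FOLH1B, NAALAD2, STEAP1, STEAP2, CD276, SLC45A3, SLC44A4 and PSCA. All 9 passed the filter on low counts, as did 19250 genes in all. RNA sequencing had been performed on LNCaP cells, an androgen-responsive line from a prostate cancer metastasis, and its libraries are wells of that 1 line. All cells had been starved in medium without serum or calcium before recombinant NRG1, a growth factor that binds the receptor HER3, was added. There were 3 libraries each at 0 h and after 12 h and 24 h with 15 ng/mL NRG1. Untreated libraries of the later times were not analysed here, so NRG1 and time in the starvation medium cannot be told apart.

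FOLH1 encodes prostate-specific membrane antigen (PSMA), a membrane peptidase that removes glutamate from folates and from the neuropeptide NAAG. It is the target of PSMA imaging agents and radioligands, and LNCaP cells are known for a high level of it. NAALAD2 encodes a related peptidase, and FOLH1B is a duplicated copy of FOLH1 classed in the deposited table as a transcribed pseudogene. STEAP1 and STEAP2 belong to a family of membrane proteins, several of which reduce iron and copper. SLC45A3, also called prostein, is a transporter-like protein of prostate epithelium, SLC44A4 is a member of the choline transporter-like family, CD276 (B7-H3) is an immune checkpoint molecule of the B7 family, and PSCA is a small membrane-anchored protein of the Ly6 family. In prostate cells, SLC45A3 is known to be raised by androgen and FOLH1 to be lowered by it.

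FOLH1 lies on chromosome 11 from 49145092 to 49208638, FOLH1B on the same chromosome from 89639237 to 89698718, and NAALAD2 433 kb beyond FOLH1B, from 90131515 to 90192894 (GRCh38). Transcripts of FOLH1 and FOLH1B could be aligned over 2135 bases with 98.7% identity, and FOLH1 and NAALAD2 over 2061 bases with 73.4%. Because the libraries were sequenced with reads of 150 bases, the windows of that length in the FOLH1B transcript were looked up in FOLH1. Of 1986 windows, 320 (16.1%) were identical in both, and the longest shared run was 414 bases. The stretch of 120 aligned coding bases with the most differences is given here to show how few bases separate the copies. It differed at 5 bases, which are in capitals (GENCODE transcripts, bases 2054 to 2173 of FOLH1 and 1743 to 1862 of FOLH1B, written 5′ to 3′).
FOLH1: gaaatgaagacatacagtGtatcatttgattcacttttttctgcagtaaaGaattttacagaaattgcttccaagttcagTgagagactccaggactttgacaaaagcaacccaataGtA
FOLH1B: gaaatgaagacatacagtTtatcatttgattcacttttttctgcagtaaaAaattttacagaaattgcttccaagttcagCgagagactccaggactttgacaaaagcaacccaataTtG

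STEAP1 (chromosome 7, 90154456 to 90164829) ends 2.76 kb before STEAP2 (90167590 to 90238137) begins on the same strand. The longest alignment of their transcripts was 453 bases at 66.9% identity, so their reads are easily separated. STEAP1 has a closer copy in STEAP1B, with 97.7% identity over 868 bases, but STEAP1B had only 119 reads in all 9 libraries against 118842 for STEAP1. SLC45A3 lies on chromosome 1 from 205657851 to 205680509, SLC44A4 on chromosome 6 from 31863192 to 31879046, CD276 on chromosome 15 from 73683966 to 73714514, and PSCA on chromosome 8 from 142670308 to 142682725. PSCA overlaps a gene on the other strand, JRK, which had 19049 reads against 1255 for PSCA and shares 367 of the 1763 exonic bases of PSCA. Whether strand was used in counting is not given in the sources used here, so PSCA reads are uncertain. The log2 fold changes of JRK, -0.051 (12 h) and 0.0037 (24 h), did not pass.

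Total counts per library were 47016302 to 60985825, and the 0 h libraries were the deepest. Replicates correlated across genes at 0.991 to 0.993 on the log2 scale, and no pair of them agreed within sampling noise. Luminal prostate markers, 8 of 8 of them detected, summed to 3363 to 3790 CPM (counts scaled to a common library size), while basal and immune markers summed to at most 0.643 CPM in any library. Stromal markers summed to 26.1 to 30.5 CPM, with overlapping ranges at the 3 times, although COL3A1 among them rose by 0.98 and 1.32 on the log2 scale. Endothelial markers went from 12.7 to 13.7 CPM at 0 h to 6.90 to 7.94 CPM at 24 h, which was almost all VWF. The endothelial marker PECAM1 had 5 reads in all 9 libraries together, and CDH5 and KDR were not among the genes of the deposited table. The part of any VWF-expressing cells in the results was not tested. In these bulk samples, fewer cells of a type and less RNA per cell cannot be told apart.

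Per kb of merged exons, FOLH1 had the highest level of the 9 genes and NAALAD2 the lowest. At 0 h FOLH1 was at 301 ± 2.16 CPM per kb (SD, n = 3), which put it, averaged over all libraries, at rank 104 of 19215 genes with a known length. STEAP1 (167 ± 0.895) and STEAP2 (99.2 ± 4.16) followed, then SLC45A3 (50.6 ± 1.15), SLC44A4 (30.6 ± 1.13) and CD276 (23.6 ± 0.445). PSCA (1.76 ± 0.230), FOLH1B (1.07 ± 0.169) and NAALAD2 (0.540 ± 0.0769) were far lower. All neighbours in this order at 0 h had ranges that did not overlap. The order of SLC44A4 and CD276 changed during the time course. SLC44A4 was above CD276 at 0 h, overlapped it at 12 h (22.5 to 23.6 against 23.5 to 24.8 CPM per kb), and was below it at 24 h (18.8 to 20.7 against 22.7 to 23.6). Measured by the longest transcript in place of merged exons, 5 of the 9 genes kept their place in the average order. CD276 then moved above SLC44A4 and NAALAD2 above FOLH1B, so these adjacent placings depend on the length used.

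**Figure D1:**
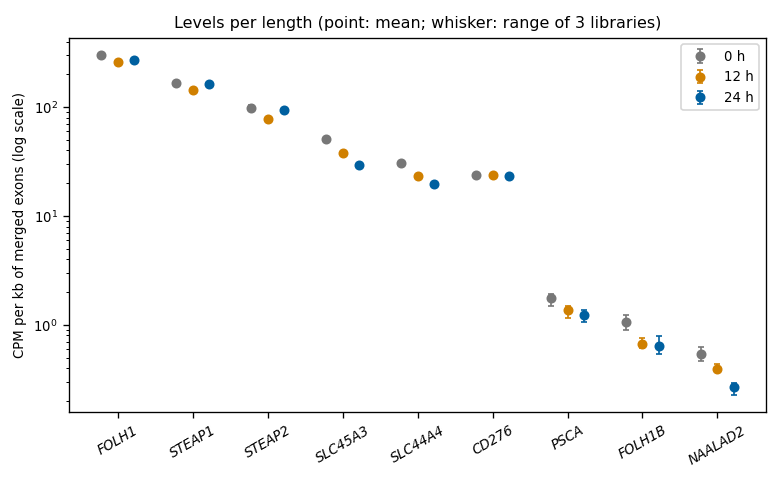
Mean level of each gene in CPM per kb of merged exons (log axis) at 0, 12 and 24 h, with whiskers for the range of the 3 libraries. FOLH1, STEAP1 and STEAP2 lie above 70 CPM per kb at every time, and PSCA, FOLH1B and NAALAD2 lie below 2.

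The 12 h comparison addressed which of these genes had responded by then. FOLH1, FOLH1B, NAALAD2, STEAP1, STEAP2, SLC45A3 and SLC44A4 fell, and none of the 9 rose. FOLH1 fell by 13% and FOLH1B fell by 37%, and the others lay between them. These 7 genes passed at an adjusted p-value (edgeR) no higher than 0.05, against 18.7% of all tested genes in either direction and 8.16% in the lower direction. With a fold change of at least 1.5 as well, the thresholds of the study's methods, FOLH1B alone passed, against 2.37% of all genes in either direction and 1.38% lower. The 12 h and 0 h libraries did not overlap for 8 of the 9 genes, all but CD276, against 32.8% of all genes and 15.3% in the lower direction. The median log2 fold change of the 9 genes was -0.37, while that of all tested genes was -0.0084. At 24 h against 0 h, 6 of the 9 genes passed on the adjusted p-value (21.1% of all genes, 9.48% lower) and all 6 were lower. At this time 4 passed both thresholds (3.31% of all genes, 1.78% lower), namely FOLH1B, NAALAD2, SLC45A3 and SLC44A4. The median was -0.53, against -0.0068 for all genes. Groups did not overlap for 6 of the 9, against 33.5% of all genes and 16.2% lower. Both comparisons share the 0 h libraries. Because the genes were chosen with earlier results of these data known, the counts set beside the shares of all genes are a description only. Tested over the 3 times at once, 8 of the 9 genes passed, all but CD276, as did 25.1% of all genes.

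**Figure D2:**
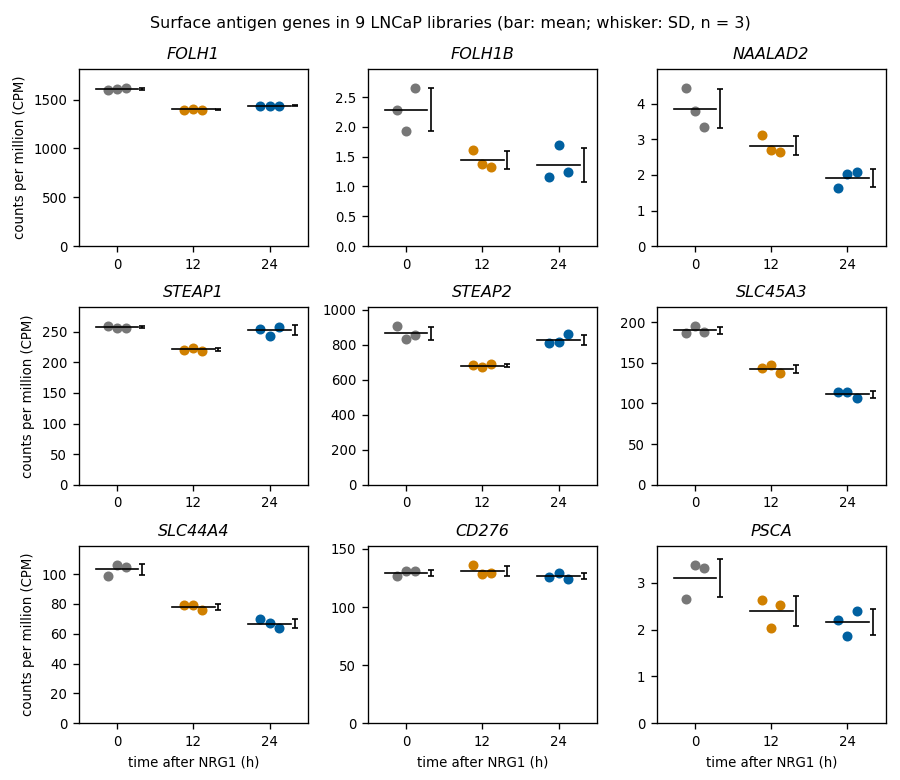
CPM of each gene in each of the 9 libraries against time after NRG1 addition (h), every vertical axis starting at 0. Points are libraries, bars are group means and whiskers are SD (n = 3). SLC45A3 and SLC44A4 step down at both times, STEAP1 and STEAP2 dip at 12 h, and CD276 stays between 124 and 136 CPM.

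FOLH1, the gene of PSMA, fell by a small but tightly measured amount. Its levels were 1598, 1605 and 1621 CPM at 0 h, 1395, 1408 and 1396 CPM at 12 h, and 1438, 1439 and 1434 CPM at 24 h. The 0 h libraries lay above all others, and the 12 h and 24 h libraries did not overlap either. The log2 fold change was -0.20 at 12 h (standard error 0.029, edgeR adjusted p-value 2.08e-06) and -0.16 at 24 h (standard error 0.029, edgeR adjusted p-value 4.82e-05). FOLH1 thus decreased by 13% and, at 24 h, was 10.6% lower than at 0 h. The change from 12 h to 24 h was 0.038 with a 95% interval of -0.020 to 0.097, and it did not pass. Groups that do not overlap were common, at 24.4% of all genes between 12 and 24 h.

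FOLH1B had 0.116% as many reads as FOLH1. It measured 2.27, 1.93 and 2.65 CPM at 0 h, 1.61, 1.38 and 1.32 CPM at 12 h, and 1.15, 1.69 and 1.25 CPM at 24 h. All 0 h libraries were above all treated libraries, and 12 h and 24 h overlapped. The log2 fold change was -0.67 at 12 h (standard error 0.19, edgeR adjusted p-value 0.0102) and -0.74 at 24 h (standard error 0.19, edgeR adjusted p-value 0.00388). The 12 h call was lost when 0 h replicate 3 (-0.54) or 12 h replicate 3 (-0.61) was omitted. Given the near identity of the copies, reads of FOLH1 placed on FOLH1B would count here, and their part was not tested.

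The share of FOLH1B in the summed counts of FOLH1 and FOLH1B does not depend on library scaling. It was 0.142% ± 0.0217 at 0 h, 0.103% ± 0.0112 at 12 h and 0.0948% ± 0.0199 at 24 h (n = 3, SD). An exact permutation test over all 1680 assignments of the 9 libraries gave p = 0.0393 for any difference among the times, and also 0.0393 after adjustment over the 2 shares tested. The smallest p this design allows is 0.00357. The p-value rose above 0.05 in 7 of the 9 tests that each left out 1 library, with values up to 0.150, and those have fewer assignments.

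NAALAD2 had the largest fall of the group at 24 h. It was at 4.45, 3.80 and 3.36 CPM at 0 h, 3.13, 2.71 and 2.64 CPM at 12 h, and 1.64, 2.02 and 2.09 CPM at 24 h. The 3 groups did not overlap, and each time point was below the one before it. Its log2 fold change at 24 h was -1.01 (standard error 0.15, edgeR adjusted p-value 2.82e-06), so that it fell by 50.3%. At 12 h it was -0.45 (standard error 0.14, edgeR adjusted p-value 0.0222). That call did not hold with 0 h replicate 1 (-0.33), 12 h replicate 2 (-0.42) or 12 h replicate 3 (-0.40) left out, nor with the libraries thinned to equal depth (-0.41). The further change from 12 h to 24 h was -0.56 (edgeR adjusted p-value 0.0245). It no longer passed when 12 h replicate 1 (-0.47), 12 h replicate 2 (-0.59) or 24 h replicate 1 (-0.46) was omitted. The largest count of NAALAD2 in any library was 276 reads and the smallest 77, so its standard errors were larger than those of FOLH1.

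STEAP1 and STEAP2, the adjacent metalloreductase family genes, fell at 12 h and were back near their starting level at 24 h. STEAP2 measured 906, 836 and 854 CPM at 0 h, 686, 672 and 688 CPM at 12 h, and 810.3, 815 and 862 CPM at 24 h. The 12 h libraries lay below all others, and the 0 h and 24 h libraries overlapped. The log2 fold change was -0.34 at 12 h (standard error 0.033, edgeR adjusted p-value 5.05e-10). From 12 h to 24 h STEAP2 rose by 0.28 (standard error 0.033, edgeR adjusted p-value 1.87e-07). Its value at 24 h against 0 h, -0.061 with a 95% interval of -0.13 to 0.0060, did not pass.

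STEAP1 had the same course at a smaller size. Its levels were 259, 257 and 256 CPM at 0 h, 220.0, 224 and 219 CPM at 12 h, and 255, 243 and 258 CPM at 24 h. Again the 12 h libraries were the lowest and the other times overlapped. The log2 fold change was -0.22 at 12 h (standard error 0.032, edgeR adjusted p-value 2.26e-06) and 0.19 from 12 h to 24 h (standard error 0.032, edgeR adjusted p-value 0.000104). At 24 h against 0 h it was -0.029 with a 95% interval of -0.093 to 0.035. Log2 CPM of the 2 genes correlated at 0.963 over the 9 libraries, which share their depth and scaling.

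The share of STEAP1 in the summed counts of STEAP1 and STEAP2 was 22.9% ± 0.650 at 0 h, 24.5% ± 0.449 at 12 h and 23.3% ± 0.535 at 24 h (n = 3, SD). The 12 h libraries lay above those of the other times. The exact permutation test gave p = 0.0393 (0.0393 adjusted over the 2 shares) for any difference among the times. In 6 of the 9 tests without 1 library it rose above 0.05, to at most 0.129.

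**Figure D3:**
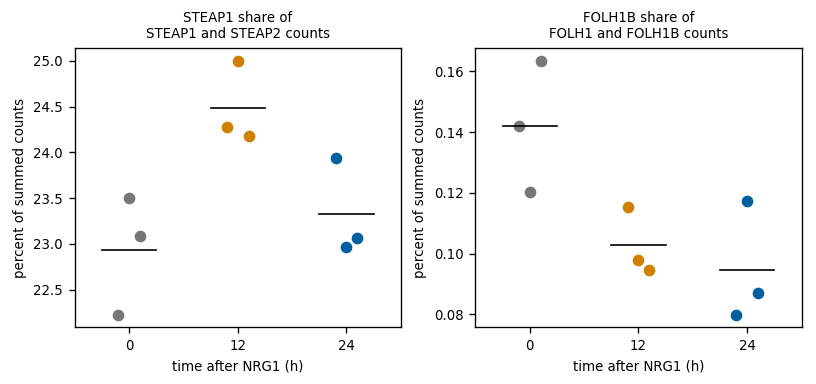
Share of STEAP1 in the counts of STEAP1 and STEAP2 (left) and of FOLH1B in those of FOLH1 and FOLH1B (right), in percent, for each library against time (h). Points are libraries and bars are group means, and the vertical axes do not start at 0. The STEAP1 share is highest in the 12 h libraries, and the FOLH1B share is highest at 0 h.

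SLC45A3 and SLC44A4 fell at 12 h and fell again by 24 h. SLC45A3 (prostein) was at 187, 195 and 188 CPM at 0 h, 143, 147 and 137 CPM at 12 h, and 114, 114 and 107 CPM at 24 h. The 3 groups were fully apart, with each time below the one before it. Its log2 fold change was -0.41 at 12 h (standard error 0.035, edgeR adjusted p-value 2.37e-11) and -0.77 at 24 h (standard error 0.035, edgeR adjusted p-value 6.49e-19). By 24 h SLC45A3 had decreased by 41.3%. The step from 12 h to 24 h was -0.35 (standard error 0.036, edgeR adjusted p-value 9.22e-09).

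SLC44A4, the choline transporter-like gene, measured 98.8, 106 and 104 CPM at 0 h, 79.6, 79.0 and 75.8 CPM at 12 h, and 69.7, 66.9 and 63.5 CPM at 24 h. These groups did not overlap either. The log2 fold change was -0.40 at 12 h (standard error 0.039, edgeR adjusted p-value 5.78e-10), -0.63 at 24 h (standard error 0.039, edgeR adjusted p-value 3.48e-15) and -0.23 between them (standard error 0.040, edgeR adjusted p-value 0.000173). At 24 h SLC44A4 had decreased by 35.3%. SLC45A3 and SLC44A4 had a Pearson correlation of 0.989 in log2 CPM over the 9 libraries, the highest of any pair among the 9 genes.

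The upstream sequences of SLC45A3 and SLC44A4 are shown because these 2 genes, on different chromosomes, had the closest courses. They are the 250 bases before the transcript start in RefSeq (GRCh38.p14), at chr1:205680510-205680759 and chr6:31878998-31879247, both on the minus strand and written 5′ to 3′. Capitals mark GGGCGG (the GC box) and TATAAA, each on either strand.
SLC45A3: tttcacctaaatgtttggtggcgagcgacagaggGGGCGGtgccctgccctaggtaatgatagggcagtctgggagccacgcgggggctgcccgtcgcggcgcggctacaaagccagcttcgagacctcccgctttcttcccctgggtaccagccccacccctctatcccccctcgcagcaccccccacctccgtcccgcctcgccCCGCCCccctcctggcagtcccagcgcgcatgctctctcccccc
SLC44A4: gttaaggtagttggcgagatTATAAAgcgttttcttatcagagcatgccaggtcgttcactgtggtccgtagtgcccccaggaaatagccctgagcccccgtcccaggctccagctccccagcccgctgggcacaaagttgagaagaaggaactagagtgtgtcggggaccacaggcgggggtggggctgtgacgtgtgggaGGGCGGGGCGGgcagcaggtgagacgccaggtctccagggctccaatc

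Each of these windows held 2 matches of GGGCGG, which overlap in SLC44A4, and 42.6% of 35116 RefSeq windows of the same length held at least 1. TATAAA was in the SLC44A4 window shown and in 10.7% of all windows. RefSeq gives SLC44A4 a second, downstream start, whose window held 0 matches of either motif and is not shown. The steroid receptor half-site AGAACA (12.4% of all windows) and the ETS motifs CCGGAAGT (3.42%) and CAGGAAGT (2.6%) had no match in either sequence shown on either strand.

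CD276 was the 1 gene of the group with no call in any comparison. It measured 127, 131 and 131 CPM at 0 h, 136, 129 and 129 CPM at 12 h, and 126, 129.6 and 124 CPM at 24 h. The groups overlapped at all times. The log2 fold change was 0.019 at 12 h (95% interval -0.050 to 0.089) and -0.033 at 24 h (-0.10 to 0.037), with edgeR adjusted p-values of 0.768 and 0.575. CD276 had 5911 to 7858 reads per library.

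PSCA was at 2.65, 3.38 and 3.31 CPM at 0 h, 2.63, 2.04 and 2.52 CPM at 12 h, and 2.22, 1.86 and 2.40 CPM at 24 h. The treated libraries all lay below the 0 h libraries, by a narrow gap at 12 h. PSCA fell by 0.53 on the log2 scale at 24 h (standard error 0.16, edgeR adjusted p-value 0.0135). It did not pass with 0 h replicate 2 (-0.46), 0 h replicate 3 (-0.48) or 24 h replicate 2 (-0.43) left out. The 12 h value of -0.37 (edgeR adjusted p-value 0.0932) did not pass, except without 0 h replicate 1 (-0.48). With 101 to 196 reads per library, PSCA was measured less precisely than the abundant genes.

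**Figure D4:**
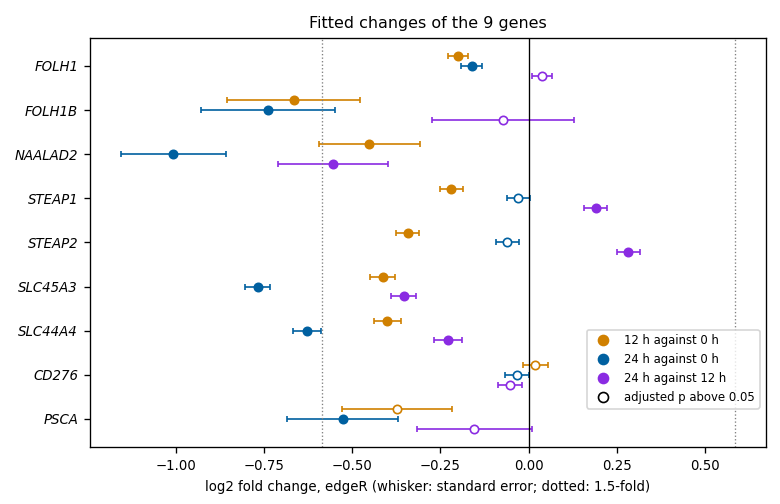
Log2 fold change of each gene fitted by edgeR at 12 h and 24 h, each compared with 0 h, and from 12 h to 24 h, with standard errors as whiskers. Filled points passed the 0.05 threshold on the adjusted p-value, and dotted lines mark 1.5-fold. STEAP1 and STEAP2 rose from 12 h to 24 h while NAALAD2, SLC45A3 and SLC44A4 fell.

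The direct comparison of 24 h with 12 h asked whether the levels kept moving. It passed for 5 of the 9 genes on the edgeR adjusted p-value, against 6.08% of all tested genes, and for 0 of 9 with the fold threshold, against 0.452%. NAALAD2 passed both when 12 h replicate 3 was left out (-0.60), and likewise on omitting 24 h replicate 2 (-0.60) or 3 (-0.62). STEAP1 and STEAP2 were higher at 24 h than at 12 h (3.03% of all genes were called higher). NAALAD2, SLC45A3 and SLC44A4 were lower (3.05% of all genes). FOLH1, FOLH1B, CD276 and PSCA did not pass, with log2 fold changes of -0.15 to 0.038.

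Genes with the most similar courses were sought among at least 11382 other genes with a mean log2 CPM of at least 2, by Pearson correlation of log2 CPM over the 9 libraries. For FOLH1 they were LRRC31 (0.993), DDC (0.991) and GRB10 (0.991), each of which changed more than FOLH1 itself, by -0.77, -0.73 and -0.62 at 12 h. For SLC45A3 they included CD9 (0.992) and CHPT1 (0.991), and for SLC44A4 they were RWDD2A (0.991), C1orf116 (0.990) and ANKRD16 (0.990). For STEAP2 they were KIF5C (0.971), LUZP2 (0.965) and FAR1 (0.964), and for STEAP1 they were UBXN4 (0.972), STEAP2 (0.963) and GOLM2 (0.963). The best match of NAALAD2 was VPS37B (0.976), that of CD276 was NCK1-DT (0.959), that of FOLH1B was OSER1-DT (0.955) and that of PSCA was TRADD (0.946). All of these libraries share depth and scaling, and genes that differ between the times correlate for that reason alone.

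Genes of the same families were then examined from lists written from general knowledge. Among 6 other peptidases and relatives of FOLH1, 4 were tested. TFRC, the transferrin receptor, whose fold resembles that of PSMA, rose from 528 ± 6.46 to 611 ± 3.11 CPM at 12 h and 632 ± 5.27 CPM at 24 h (n = 3, SD). Its log2 fold changes were 0.21 and 0.26 (edgeR adjusted p-values 1.46e-06 and 1.33e-08), opposite in sign to those of FOLH1. NAALADL2 passed only at 12 h (-0.11), and CPQ (0.20 at 24 h) and TFR2 (-0.40 at 24 h) did not pass. Of the other STEAP genes, STEAP3 (0.10 and 0.13) and STEAP1B (0.36 and -0.021) did not pass at 12 or 24 h, and STEAP4 was under the filter with 18 reads in all.

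Among 9 other B7 family genes, 4 were tested, and 1 rose and 1 fell at both times. CD274, which encodes PD-L1, fell from 2.28 ± 0.375 CPM to 1.33 ± 0.126 CPM at 12 h and 0.957 ± 0.145 CPM at 24 h (n = 3, SD). Its log2 fold changes were -0.78 and -1.26, with edgeR adjusted p-values of 0.00280 and 9.24e-06. NCR3LG1, the ligand of an activating natural killer cell receptor, rose by 0.26 and 0.21. VTCN1 (-1.17 at 24 h) did not pass, at a level of 0.268 ± 0.113 CPM before NRG1.

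Of the 7 other SLC44 and SLC45 genes, all tested, SLC44A1, a choline transporter, fell by 0.44 on the log2 scale at 12 h and by 0.38 at 24 h. Its level was 128 ± 0.848 CPM before NRG1, then 94.2 ± 2.07 and 98.6 ± 3.19 CPM (n = 3, SD). SLC45A4 rose by 0.21 and 0.37. SLC45A2 passed both thresholds at 12 h (-1.31, edgeR adjusted p-value 0.0300) but not at 24 h (-0.39), at a level of 0.603 ± 0.318 CPM at 0 h. SLC44A5 (0.75 at 24 h) did not pass. Of the 10 Ly6 and uPAR proteins besides PSCA, 5 were tested and LY6E alone passed, rising by 0.37 at 12 h and 0.23 at 24 h. CD59 (0.025 and -0.071) and LYNX1 (0.073 and 0.010) did not pass.

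Among 24 further surface proteins used as tumour targets, 21 were tested. At 12 h 2 were higher and 6 lower on the adjusted p-value, where 10.6% of all genes were higher and 8.16% lower. At 24 h 5 were higher and 4 lower, where 11.6% of all genes were higher and 9.48% lower. Their median log2 fold changes were 0.056 and 0.022. ALCAM (an adhesion molecule), TMPRSS2 (an androgen-regulated membrane protease) and TMEFF2 (a transmembrane protein of prostate) fell at both times and further at 24 h. Their log2 fold changes at 24 h were -0.51, -0.57 and -0.55, and those from 12 h to 24 h were -0.28, -0.32 and -0.42. GRPR, the gastrin-releasing peptide receptor, was the 1 gene of this list past both thresholds. It rose by 0.97 on the log2 scale at each time, with means of 1.16 ± 0.0903 CPM before NRG1 and 2.26 ± 0.243 and 2.27 ± 0.324 CPM after it (n = 3, SD).

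Folate, iron and copper genes had medians between -0.0091 and 0.013 in the comparisons with 0 h. Of 8 tested folate and NAAG genes, SLC19A1, the reduced folate carrier, rose by 0.14 at 12 h and 0.21 at 24 h. GGH, which trims folate polyglutamates, fell by 0.20 on the log2 scale at 24 h. Of 10 tested iron and copper genes, SLC11A2 (an iron transporter) rose by 0.11 and 0.12. FTH1, ferritin heavy chain, fell by 0.096 at 12 h and rose by 0.19 from 12 h to 24 h, and at 24 h it was higher than at 0 h (0.096, edgeR adjusted p-value 0.0225). ATP7A, a copper pump, fell by 0.13 at 12 h (edgeR adjusted p-value 0.0495).

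Of 7 tested choline genes, CHPT1, which makes phosphatidylcholine, fell from 236 ± 2.75 CPM to 178 ± 2.42 CPM at 12 h and 147 ± 2.49 CPM at 24 h (n = 3, SD). Its log2 fold changes of -0.41 and -0.68 were close to those of SLC45A3 and SLC44A4, and it passed both thresholds at 24 h. PEMT rose by 0.21 and 0.29, and CHDH by 0.18 at 12 h.

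KLK3 and KLK2, androgen-regulated kallikrein genes of prostate epithelium, both rose at 12 h, when none of the 9 genes did. KLK3 rose by 0.42 at 12 h and 0.25 at 24 h, while KLK2 rose by 0.11 at 12 h and fell by 0.22 at 24 h.

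**Figure D5:**
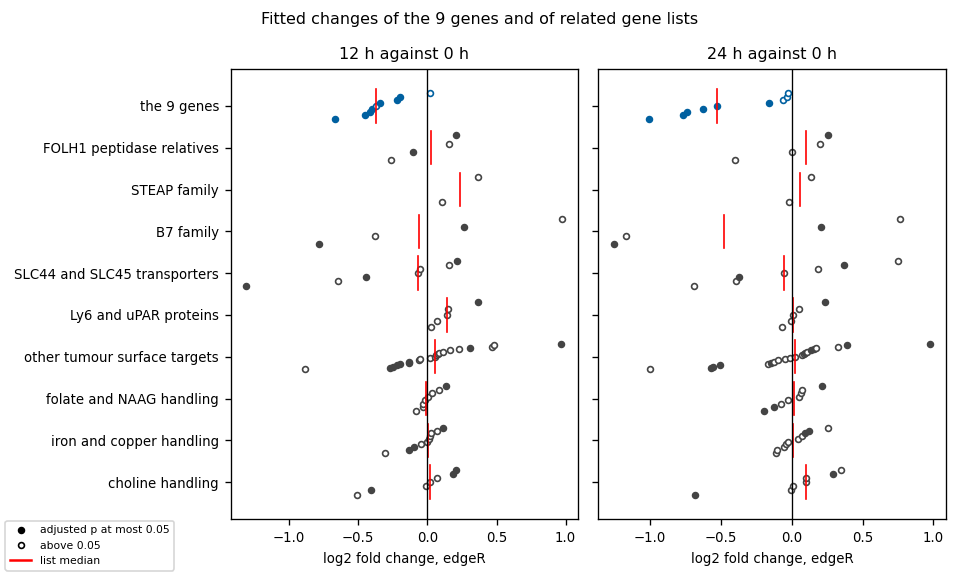
Log2 fold changes fitted by edgeR at 12 h (left) and 24 h (right) against 0 h for the 9 genes (blue) and for the tested genes of each related list (grey), 1 point per gene, with the list median as a red line. Filled points passed the 0.05 threshold on the adjusted p-value. The median of the 9 genes is -0.37 and -0.53, and those of the folate, iron and other tumour target lists lie within 0.06 of 0. Medians of the related lists reach -0.48 (B7 family at 24 h, 4 tested genes) and 0.23 (STEAP family at 12 h, 2 tested genes).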

How the data were processed

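Per the study's methods, the authors trimmed paired reads with Cutadapt, aligned them with STAR (GRCh38) and assigned them to GENCODE genes with featureCounts. The authors deposited raw counts as whole numbers for each of the 9 libraries, beside 14 empty columns. Whether strand was used, and how reads with several positions were handled, is not given in the sources used here.

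Groups came from the sample titles. After filterByExpr (19250 of 37351 genes kept) and TMM scaling, all 9 libraries were fitted with edgeR 4.0.16 in R 4.3.3 (robust quasi-likelihood, no covariates), with Benjamini-Hochberg adjustment over all tested genes. Calls needed an adjusted p-value no higher than 0.05, and the second threshold was a fold change of 1.5. Standard errors come from the F statistic. The alternatives were DESeq2 1.42.0, other scalings and filters, only the libraries compared, a replicate block, no mitochondrial genes, thinning to 47016302 counts, FOLH1 and FOLH1B summed, and each library left out. The steps were tested on simulated counts. Depths of 47016302 to 60985825 limit counting error only, since reads carried no molecular identifiers. P-values measure the spread between wells of 1 line.

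GENCODE release 44 gave lengths for 19215 tested genes, BLAST 2.17.0 found near copies, and RefSeq upstream windows covered 6 of the 9 genes. From each related list, the 3 genes with the smallest adjusted p-value at 24 h and any gene past both thresholds were named, and within 300 kb of the 9 genes those past both. NAALADL2, STEAP4, VWF, PECAM1, COL3A1 and CFAP69 were named after their values were seen. The members and lists were chosen with earlier results of these data known. Some genes that these rules select are not reported here.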

Additional observations from a re-analysis of the deposited data

Results flagged for a closer look

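For 5 of the 9 genes, the response measured after 12 h differed from that after 24 h in the edgeR test between these times, which is why they are singled out. STEAP2 (log2 fold change 0.28 from 12 h to 24 h) and STEAP1 (0.19) were higher at the later time. SLC45A3 (-0.35), SLC44A4 (-0.23) and NAALAD2 (-0.56) were lower. Over the edgeR and DESeq2 alternatives, the adjusted p-value was at most 0.00386 for SLC44A4, 0.00221 for STEAP1, 1.04e-05 for STEAP2 and 6.42e-07 for SLC45A3, and it reached 0.142 for NAALAD2.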

How the results depend on the processing

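Of 510 alternative values of the 27 log2 fold changes, 494 kept their sign and their side of the threshold, 12 lost a call, 1 gained one and 3 changed sign. The sign changes were in values that had not passed, namely CD276 at 12 h (-0.0042 to 0.038 without 1 library, negative without 12 h replicate 1) and FOLH1B from 12 h to 24 h (-0.26 to 0.031, positive without 12 h replicate 1 or 24 h replicate 1). Without each library in turn, the genes past both thresholds numbered 0 to 1 of 9 at 12 h (0 without 0 h replicate 3 or 12 h replicate 3) and 0 to 1 from 12 h to 24 h, and all genes past both thresholds from 12 h to 24 h numbered 55 (without 12 h replicate 2) to 100 against 87. On the adjusted p-value alone, leaving out 1 library gave 5 to 7 genes of the group at 12 h and 5 to 6 at 24 h. From 12 h to 24 h it gave 4 to 5, and over the 3 times at once 6 to 8. The causes of these moves were not tested. With FOLH1 and FOLH1B summed, 0 of the remaining 8 passed both thresholds at 12 h. The difference of the STEAP1 share between 24 h and 0 h ranged from 0.028 to 0.67 percentage points, and that of the FOLH1B share from -0.059 to -0.036. NAALAD2 at 12 h also lost its call after thinning (-0.41). The medians of all genes moved by less than 0.02 under the other scalings. Replicate numbers did not pair the libraries, since deviations of same-numbered libraries correlated at -0.037 to 0.029 and 6 of 18 best matches had the same number. With the replicate block, 7, 6 and 5 genes of the group passed on the adjusted p-value, as without it. By the stricter rule of both thresholds, 448, 621 and 92 of all genes passed with the block, against 457, 638 and 87 without it. FOLH1B, NAALAD2 and PSCA, with at most 276 reads per library, are limited by depth.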

Other observations

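Genes within 300 kb of the 9 genes were counted as a further description. Around SLC44A4, 45 genes were tested, of which 9 were lower and 1 higher at 24 h against 0 h on the edgeR adjusted p-value, where 9.48% of all genes were lower. EHMT2-AS1, PRRT1 and MPIG6B passed both thresholds (log2 fold changes of -0.87, -0.80 and -0.67). EHMT2-AS1 overlaps SLC44A4 on the other strand, with 1.69% as many reads and no exonic base in common. Around SLC45A3, 3 of 8 genes were lower at 24 h, and MFSD4A, a transporter-like gene, passed both thresholds (-0.63 at 12 h and -0.87 at 24 h).

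Around CD276, which did not pass itself, LOXL1, a crosslinking enzyme of elastic fibres, rose by 1.29 at 12 h and 1.37 at 24 h, and LOXL1-AS1 rose by 0.64 and 0.56. Around STEAP2, 8 genes were tested and none passed both thresholds. CFAP69, chosen after its values were seen, fell by 0.54 on the log2 scale at 12 h and rose by 0.38 from 12 h to 24 h, the direction of STEAP1 and STEAP2 at both steps. Near FOLH1, UBTFL9 fell by 0.97 (12 h) and 0.96 (24 h) on the log2 scale. Its standard error was 0.35 at each time, and its edgeR adjusted p-values, 0.0471 and 0.0458, were close to the threshold. Near FOLH1B, TRIM49 fell by 2.12 at 24 h (standard error 0.57, edgeR adjusted p-value 0.00591). Around NAALAD2 and PSCA, 0 of 4 and 0 of 10 tested genes passed both thresholds by edgeR.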
